A study of Mus musculus with 24 samples.

Results

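The colon of SCID mice that were given neither T cells nor treatment was described from the 4 libraries labelled Normal, of 24 libraries in the series. Members were taken as the 4 samples whose own labels give no treatment, each read from that sample's own count file. The mice were of the strain C.B-17/Icr-scid/scid, bought at 7 weeks of age, and the tissue was colon, its distal part per the design text. A day of collection and the sex of the Normal mice are not stated separately from those of the recipients, which were described as female. All 24 libraries came from mice of this strain, so every group carries the scid mutation. The 4 libraries used for comparison, labelled Vehicle, came from SCID mice injected with activated CD4+ T cells of BALB/c donors on day 0, given 0.5% methylcellulose and killed for colon RNA on day 28. The Normal libraries therefore differ from Vehicle both in the transferred cells and in the methylcellulose, and these cannot be told apart. The other 16 libraries came from recipients given a MEK inhibitor at 0.3 or 1 mg/kg, an isotype antibody or an antibody against TNFa, and enter only where stated. Whether the replicates were separate animals is not stated for each library, so the p-values below reflect the variation seen among these libraries, part of which may be technical.

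As background, the scid mutation lies in Prkdc, the catalytic subunit of the DNA-dependent protein kinase that joins DNA ends during antigen receptor rearrangement, so these mice make almost no mature T and B cells while natural killer cells, other innate lymphoid cells and myeloid cells still form. The colon is lined by a single layer of epithelium in which crypt base stem cells give rise to absorptive colonocytes, mucus-secreting goblet cells, hormone-secreting enteroendocrine cells and chemosensory tuft cells. Around it lie a connective tissue with vessels and macrophages, layers of smooth muscle, and a nervous system of the gut's own. Such a colon is the starting state onto which transferred T cells bring colitis in this model. As bulk RNA was sequenced, fewer cells of a type and less RNA per cell cannot be told apart in any value below.

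Library totals were 4619047, 3052940, 5358259 and 4861944 counts for Normal 1 to 4. Of 43280 gene symbols in the files, 22262 had a count in at least 1 Normal library, 16329 had one in all 4, and 15233 had a mean of 1 CPM or more. CPM stands for a gene's counts scaled to the total of its library, which makes libraries of different depth comparable. Levels are given as mean ± SD over the 4 libraries unless the single values are printed, in the order Normal 1 to 4. Levels of different genes are compared as CPM per kb, except where a rank by CPM or a summed CPM is named. CPM per kb is the CPM divided by the length of all exons of the gene in GENCODE M21 on mm10. The 6 pairs of Normal libraries had Pearson correlations of 0.949 to 0.980 over genes on the log2(CPM + 1) scale. A chi-square per gene of 6.50 to 16.1 put every pair further apart than sampling noise, so no 2 files held the same library. A whole-series table holds the same counts, but names the columns of 16 of 24 samples for another sample, among them Normal 3 and 4 as Vehicle. By those names the Normal columns hold Normal 1 and 2 with 2 libraries of the 0.3 mg/kg group, and the Vehicle columns hold Normal 3 and 4 with the other two of that group. By the samples' own files, 7 T cell genes together had 0 to 2 counts in each Normal library and 243 to 385 in each Vehicle library. By the table's names the ranges were 0 to 231 and 1 to 216.

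Among named nuclear genes, the highest levels belonged mostly to genes of the surface epithelium and its mucus. Lypd8, a highly glycosylated surface protein that keeps flagellated bacteria away from the colonic epithelium (chromosome 11, 58379043 to 58390728), was at 16816, 16876, 16917 and 19526 CPM. Normal 4 was the highest and the other 3 lay within a narrow band. Per length it was the first of all genes at 13656 ± 1035 CPM per kb. The mitochondrial genes mt-Co1, mt-Cytb and mt-Nd1 came next at 10921 ± 2506, 7096 ± 2342 and 5375 ± 1780, then the pseudogene Gm29216 at 4796 ± 1087. Among named nuclear genes, Lypd8 was followed by Zg16, a lectin of the mucus that binds Gram-positive bacteria, at 3890.1 ± 661 CPM per kb. Tff3, the trefoil peptide of goblet cells, came after Zg16 at 3327 ± 455. The next were the epithelial keratin gene Krt8 at 2985 ± 599 and Sycn, which encodes syncollin, a protein first known from secretory granules of the pancreas, at 2845 ± 324. The spreads of Krt8, Sycn and Tff3 overlap, so their order is not resolved by these libraries.

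Sycn (chromosome 7, 28540885 to 28542209) was at 1720.05, 1607, 1322 and 1679.8 CPM, lowest in Normal 3. Of 14 pancreas genes, 9 had no count in any Normal library, among them the carboxypeptidase gene Cpa1, the chymotrypsinogen gene Ctrb1, the lipase gene Pnlip and both insulin genes Ins1 and Ins2. Cela1, which encodes an elastase that is also made outside the pancreas, gave nearly all of that list's sum at 414, 318, 351 and 440.4 CPM, and Clps, the colipase gene, was at 9.22 ± 3.70 CPM. The symbol with the highest CPM of all, Yam1, was at 19519 ± 4148 CPM and matched no gene of the annotation, so what it counts is unknown and it is left out of comparisons per length.

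**Figure D1:**
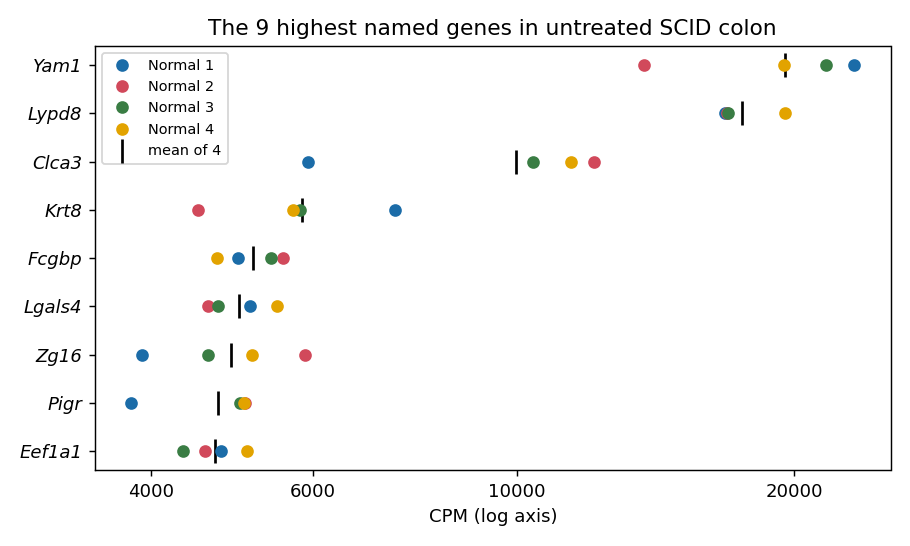
CPM on a log axis of the 9 named genes with the highest mean CPM in untreated SCID colon, leaving out mitochondrial, ribosomal protein and predicted genes; each point is 1 library and each bar the mean of 4. Clca3 runs from 5929 CPM in Normal 1 to 12115 CPM in Normal 2, while Lypd8 has 3 libraries within 16816 to 16917 CPM.

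Counts were spread over many genes. The library's own 100 highest genes held 24.7, 26.5, 24.8 and 27.7% of all counts. The 32 mitochondrially encoded genes with a count held 3.60, 6.24, 3.73 and 5.39%, with Normal 2 and 4 above Normal 1 and 3. Cytosolic ribosomal protein genes, of which 83 of 84 were detected, held 3.77, 3.76, 3.54 and 3.82%. On the mean of the 4 libraries, 9925 genes were at 10 CPM or more and 1923 at 100 CPM or more.

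All 24 surface colonocyte genes were at 1 CPM or more, from 1.11 to 13656 CPM per kb with a median of 133. After Lypd8 the highest were Car1, a carbonic anhydrase of the absorptive cell, at 1985 ± 304 CPM per kb, Guca2a, the precursor of the hormone guanylin that acts on salt and water secretion, at 1763 ± 267, and Muc3, a membrane-bound mucin, at 1575 ± 267. Car1 was at 2061, 2754, 2842 and 2253 CPM, with no library apart from the rest. Of 14 genes of ion and water transport, 13 were at 1 CPM or more. Atp1b1, which encodes a beta subunit of a membrane ion pump, was at 733 ± 114 CPM per kb. Aqp8, a water channel of the colonocyte surface, was at 1245, 661, 731 and 943 CPM, highest in Normal 1. The basolateral water channel gene Aqp4 was at 321 ± 108 CPM, while Aqp3, another water channel of colon, had 2, 0, 0 and 0 counts. Atp12a, the colonic proton-potassium pump, was at 872, 599, 923 and 1290.02 CPM, lowest in Normal 2 and highest in Normal 4.

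Colonocytes burn the short-chain fatty acids that gut bacteria release. Of 14 genes of this pathway, 12 reached 1 CPM. Acads, which opens the oxidation of butyrate, was at 123 ± 18.6 CPM per kb. Of 21 genes of xenobiotic metabolism, 20 reached 1 CPM, led by the glutathione transferase gene Gstm1 at 219.7 ± 35.1 CPM per kb.

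Epithelial defence genes ran from among the highest levels in the tissue to single counts. Pigr, the receptor that carries secreted IgA and IgM across the epithelium, was at 3809.7, 5068, 5005 and 5051 CPM, with Normal 1 the lowest. Saa1, an acute phase protein gene, was at 1867, 3293, 1673 and 2036 CPM, highest in Normal 2. Pla2g2a, a secreted phospholipase that kills bacteria, was at 579, 672, 419.5 and 292 CPM. In contrast the antimicrobial lectin genes Reg3b and Reg3g had 8, 4, 1 and 1 counts and 6, 7, 0 and 1 counts, and Lcn2, whose product binds bacterial siderophores, was at 6.87 ± 1.71 CPM. Duox2, an oxidase of the epithelial surface, was at 263, 232, 301 and 219 CPM with its maturation factor Duoxa2 at 34.6 ± 6.11 CPM.

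All 18 goblet cell genes were at 1 CPM or more, with a median of 452 CPM per kb and a sum of 23254, 34723, 31131 and 30271 CPM. Normal 1 was the lowest in this sum. Clca3, the symbol in these files for gob-5, a secreted metalloprotease of goblet cell mucus that GENCODE M21 calls Clca1 (chromosome 3, 145003817 to 145032776), was at 5929, 12115, 10399.5 and 11436 CPM, with Normal 1 below the other 3 libraries. The symbol Clca1 of these files, also counted among the 18, therefore stands for another gene. The Fc gamma binding protein of mucus, Fcgbp, was at 4981, 5565, 5404 and 4725 CPM. Muc2, the gel-forming mucin, was at 2533, 3115, 3568 and 2493 CPM, and per length at 411 ± 72 CPM per kb. Klk1, a kallikrein, was at 1686, 1592, 1573 and 1658 CPM, the tightest of the goblet genes named here. The transcription factor genes of the lineage, Atoh1 and Spdef, were at 73.5 ± 8.11 CPM and 52.9 ± 13.7 CPM. Ang4, an antibacterial ribonuclease, was at 7.36, 77.6, 41.2 and 22.2 CPM, with Normal 1 below the next library by 3.02 times. The intelectin gene Itln1 was also lowest in Normal 1, at 12.6, 70.1, 48.7 and 32.1 CPM.

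Of 17 enteroendocrine genes, 13 were at 1 CPM or more. Insl5, a hormone of the L cells of distal colon (chromosome 4, 103017872 to 103026842), was at 413, 457, 475 and 439.9 CPM, the 4 libraries lying close together. Peptide YY, from the same cells, is encoded by Pyy, which was at 148, 286, 151 and 132 CPM, with Normal 2 the highest. Gcg, the precursor of the glucagon-like peptides, was at 87.8 ± 9.39 CPM, and Chga and Chgb, granins of hormone granules, at 108 ± 15.6 CPM and 151 ± 40.3 CPM. The hormone genes Cck and Nts, made mainly in small intestine, had 1 count each over all 4 libraries.

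Tuft cell genes were low, with 7 of 13 at 1 CPM or more and Gng13 at 0 counts. The tuft cell channel gene Trpm5 was at 5.41, 3.60, 5.97 and 4.52 CPM and the kinase gene Dclk1, which neurons also express, at 11.3 ± 3.91 CPM. The tuft cell transcription factor gene Pou2f3 had 1, 0, 9 and 9 counts. Of 16 genes marking crypt stem cells or responding to Wnt, 15 reached 1 CPM. Lgr5, the receptor that marks crypt base stem cells, was at 3.46, 4.59, 4.29 and 7.20 CPM, Ascl2 at 7.92 ± 3.79 CPM, Axin2 at 18.4, 24.9, 38.8 and 25.3 CPM and Smoc2 at 43.1 ± 8.77 CPM. Lrig1 was the highest of this list per length at 22.5 ± 1.90 CPM per kb. Olfm4, a stem cell marker of human colon and mouse small intestine, had 0 counts, which over the 17892190 counts of the 4 libraries allows up to 0.168 CPM at 3 counts (counting error only).

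The position of the tissue was visible in its homeobox genes. Hoxb13, expressed at the far end of the hindgut, was at 469, 399.6, 461 and 529 CPM, and Hoxa13 at 62.7 ± 12.2 CPM. Hoxd13 was at 79.9, 55.4, 32.8 and 30.2 CPM, with Normal 1 above the rest. Of 17 small intestinal and Paneth cell genes, 8 reached 1 CPM and 5 reached 5 CPM. Lactase (Lct), sucrase-isomaltase (Sis) and the fatty acid binding protein gene Fabp1 had 1 count each over all 4 libraries and Apoa4 had none. The genes past 5 CPM were Rbp2, a retinol binding protein gene, at 85.8 ± 30.1 CPM, the sodium-glucose transporter gene Slc5a1 at 185 ± 11.6 CPM, Itln1 at 40.9 ± 24.5 CPM, Fabp2 at 32.1 ± 3.03 CPM and the lysozyme gene Lyz1 at 16 ± 4.19 CPM. Xist was at 305, 229.6, 306 and 232 CPM and the Y-linked genes Ddx3y, Kdm5d, Eif2s3y and Uty had no count, as in female tissue. Among recipients, Xist, Tsix and these Y-linked genes summed to as little as 10.6 CPM in the isotype antibody group. Their lowest sum in Vehicle was 152 CPM, and the cause was not tested.

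**Figure D2:**
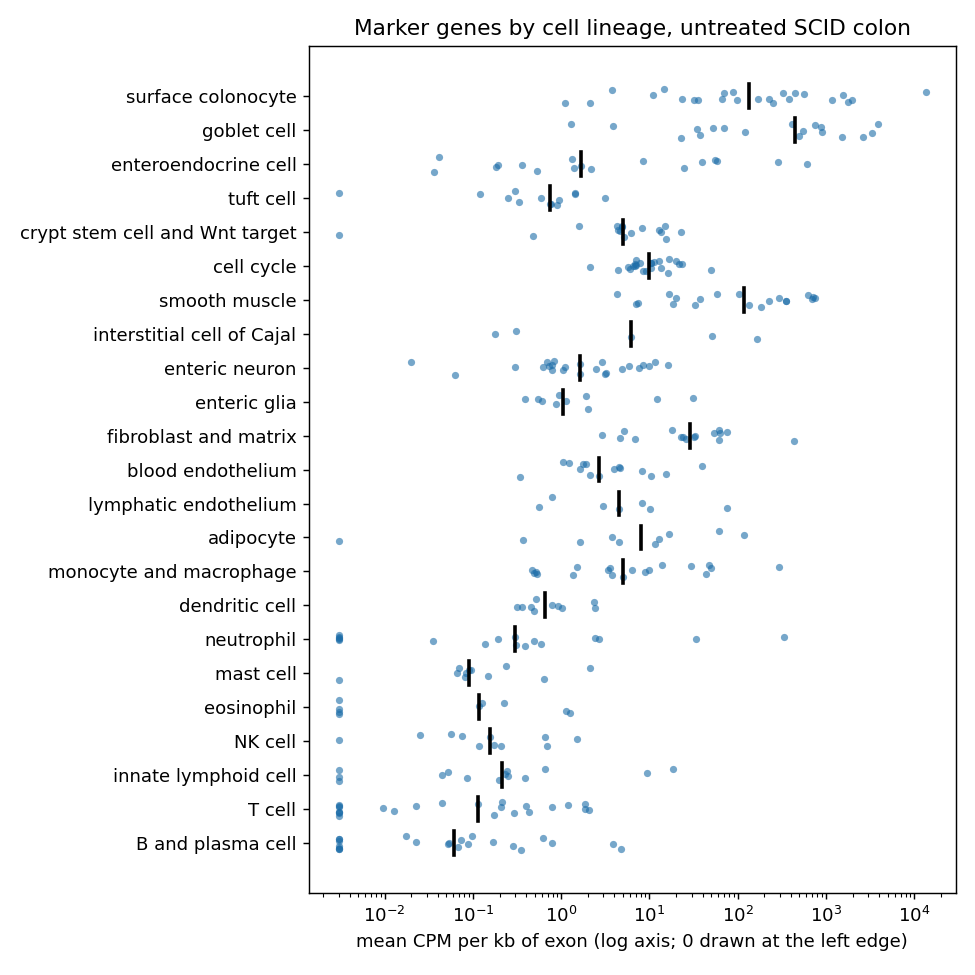
Mean CPM per kb on a log axis of each measured marker gene of 23 lineage lists in untreated SCID colon; each point is 1 gene (mean of 4 libraries), the bar is the median of the list, and genes at 0 are drawn at the left edge. The list medians drawn run from 452 CPM per kb for goblet cells to 0.0605 for B and plasma cells.

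After the epithelium, the muscle coat had the highest levels. All 20 smooth muscle genes were at 1 CPM or more, from 4.25 to 753 CPM per kb. The list's sum was 13042, 14039.6, 13565 and 10968 CPM, lowest in Normal 4. The actin genes Acta2 and Actg2 were at 753 ± 105 and 712 ± 178 CPM per kb, ahead of Myl9, a myosin light chain, at 695 ± 34.5, and Tagln, the actin-binding transgelin, at 626 ± 38.4. Actg2, the enteric smooth muscle actin, was at 1118, 1344, 1256 and 717 CPM. Markers of the interstitial cells of Cajal, the pacemakers of gut movement, were the calcium-activated chloride channel gene Ano1 at 344, 321, 294 and 328 CPM and the receptor kinase gene Kit at 58.5, 52.1, 58.2 and 51 CPM. Thbs4, a thrombospondin also listed there, was at 559.6, 526, 548 and 542 CPM. No library stood apart in any of these 3 genes.

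Enteric neuron and glia genes were also measured. The 24 neuron genes summed to 229, 225, 221 and 232 CPM, a coefficient of variation (CV, the SD as a percent of the mean) of 2.12%, the lowest of the list sums, while single members of 10 CPM or more had a median CV of 15.6%. Uchl1, a neuronal ubiquitin hydrolase, was at 16.2 ± 1.64 CPM per kb and the relaxing neuropeptide gene Vip at 11.5 ± 1.80. The glial calcium-binding protein gene S100b was at 3.03, 5.24, 1.68 and 2.06 CPM, highest in Normal 2. Erbb3 gave most of the glia sum at 187 ± 13.2 CPM, a gene that epithelium also expresses.

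In the connective tissue, the 16 fibroblast and matrix genes summed to 4391, 4033, 4884 and 3677 CPM. The fibrillar collagen gene Col3a1 was at 597, 675, 777 and 358 CPM and lowest in Normal 4, whereas the proteoglycan gene Dcn was at 328, 363, 366 and 400.05 CPM and highest there. Of 15 genes for stromal signals to the crypt, the growth factor genes Bmp2 and Bmp4 were the highest at 26.4 ± 1.88 and 23 ± 3.17 CPM per kb. Blood endothelial genes were led by Plvap, a protein of fenestrated capillaries, at 39.5 ± 3.10 CPM per kb. Lymphatic genes were led by Ccl21a, a chemokine that draws cells into lymphatics, at 76.5 ± 28.3 CPM per kb, followed by Lyve1, the hyaluronan receptor of lymphatic endothelium, at 10.3 ± 0.896. In single libraries Ccl21a was at 90.9, 40.6, 50.8 and 83.9 CPM. Of 10 adipocyte genes 9 reached 1 CPM, with Adipoq (adiponectin) at 24.7, 19.3, 26.3 and 20.8 CPM and Cfd (adipsin) at 108, 103, 136 and 89.9 CPM, while Ucp1 of brown fat had no count. Skeletal muscle creatine kinase (Ckm) was at 34.6, 25.2, 28 and 24.5 CPM. The stratified epithelium gene Sprr1a was at 24.2, 1.97, 4.48 and 4.94 CPM, highest in Normal 1. Stomach genes had 1 count in all.

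Among the leukocyte lists, that of monocytes and macrophages had the highest median level, 5.05 CPM per kb. All 19 monocyte and macrophage genes were at 1 CPM or more, and their sum of 798, 809, 842 and 861 CPM had a CV of 3.51%. Lyz2, the lysozyme of myeloid cells, was at 293 ± 31.3 CPM per kb. The complement genes C1qa, C1qb and C1qc, typical of resident macrophages, were at 50.4 ± 4.76, 46.8 ± 7.17 and 29.6 ± 1.45 CPM per kb. Csf1r, the receptor that sustains macrophages, was at 52.2, 54.7, 67 and 56.2 CPM and Emr1, the gene of the F4/80 antigen, at 10.1 ± 2.41 CPM. Markers of recently arrived monocytes were lower, with Ccr2 at 0.522 ± 0.247 and Ly6c2 at 0.495 ± 0.271 CPM per kb. Dendritic cell genes lay from 0.316 to 2.44 CPM per kb, with the integrin gene Itgax at 10.6, 7.53, 14 and 12.8 CPM.

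Most granulocyte genes were close to 0. The neutrophil genes Cxcr2, Mmp8, Ngp, Elane and Mpo had no count, and the calprotectin genes S100a8 and S100a9 had 0, 2, 1 and 0 counts and 0, 2, 2 and 0 counts. Ly6g, whose product is the usual surface marker of neutrophils, was nevertheless at 439, 336, 222 and 249 CPM, and Cd177, another neutrophil surface protein gene, at 94.6, 76.6, 120.00 and 90.9 CPM. These genes made up most of that list's sum of 423 ± 90.01 CPM. The gelatinase gene Mmp9, which several cell types express, was at 9.51 ± 1.58 CPM. Ly6g belongs to a family of closely related genes, and how reads shared between copies were counted is not given in the sources used here. Of 11 mast cell genes only Cma1 was above 1 CPM, at 2.60, 2.62, 2.05 and 1.85 CPM, and the mucosal mast cell protease gene Mcpt1 had 2, 1, 2 and 7 counts. The eosinophil genes Epx, Il5ra, Ear1 and Ear6 had no count.

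The lymphoid compartment was nearly empty, with some receptor and constant region transcripts remaining. The T cell receptor complex genes Cd3e, Cd3d and the constant region Trac, the co-receptor genes Cd8a and Cd8b1, and Cd5 and Ctla4 had 0 counts in all 4 libraries. Cd3g had 0, 0, 2 and 1 counts and the beta chain constant region Trbc1 2, 0, 7 and 3 counts. Cd4, which macrophages and other innate cells can also express, was present in every library with 25, 22, 50 and 40 counts. The T lineage transcription factor gene Bcl11b had 76, 63, 76 and 48 counts, and the kinase gene Lck 19, 13, 14 and 14 counts. The rearrangement enzyme genes Rag2 and Dntt had no count and Rag1 had 1. Prkdc itself, the gene mutated in scid (chromosome 16, 15637866 to 15842235), was transcribed, at 13.6, 17.4, 19.97 and 13 CPM. The files count reads per gene and do not show the mutation.

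Among B cell genes, Pax5, the transcription factor gene of B cell identity, had 0 counts, as did Mzb1, a chaperone of plasma cells. The heavy chain constant region of IgM, Ighm, was found in every library with 22, 21, 68 and 57 counts. Normal 3 had more immunoglobulin transcripts than the others. The kappa light chain constant region Igkc had 0, 1, 39 and 3 counts and the IgA constant region Igha 3, 0, 37 and 4 counts. Igj, the joining chain of secreted IgA and IgM, had 0, 0, 4 and 0 counts. Of 279 immunoglobulin variable segments, 9 had a count in Normal 3, summing to 28 counts, against 1, 0 and 1 segments in Normal 1, 2 and 4. The segment Igkv4-91 (chromosome 6, 68768555 to 68769103) alone had 0, 0, 11 and 0 counts. In Vehicle, Igkc was at 1092 ± 1042 CPM, so the level in Normal 3, 7.28 CPM, was small beside it. The few counts of T cell receptor complex genes given above (Cd3g and Trbc1) were also highest in Normal 3.

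Natural killer cell genes were at the limit of detection, with 3 of 11 at 1 CPM or more. Ncr1, an activating receptor of these and other innate lymphoid cells, had 2, 2, 8 and 8 counts. The cytotoxic granule gene Gzmb had 0, 1, 0 and 0 counts. The innate lymphoid cytokine genes Il22, Il17a and Il5 had no count and Il23r had 0, 1, 1 and 0 counts. Thy1, shared by lymphoid cells, neurons and fibroblasts, was at 28.3 ± 6.35 CPM. Follicle-attracting Cxcl13 was at 8.01, 8.84, 6.91 and 12.8 CPM and Madcam1, the homing ligand of gut venules, at 4.04 ± 0.784 CPM. MHC class II genes were present: Cd74, the invariant chain, was at 394, 333, 419 and 394 CPM and H2-Ab1 at 145, 134, 156 and 143 CPM.

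Spread among the 4 libraries was measured over 3947 named genes with a mean of 50 CPM or more. The median CV was 12.8%, with quartiles of 8.82% and 18%, against a median of 4.95% that counting alone would give. A CV under 10% was found for 1257 genes and one over 30% for 182. The biological coefficient of variation (BCV) that edgeR estimated from the Normal libraries alone was 18.4%, beside 19.7% in Vehicle and 23.3% to 25.8% in the 4 treated groups. Differences between these values were not tested, and single libraries carried much of some of them. Without Normal 2 the value of Normal was 14.4%, without its replicate 4 that of the 0.3 mg/kg group fell from 24.9% to 14.8%, and without its replicate 4 that of the anti-TNFa group was 16.2%.

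The lowest CVs were those of Ms4a8a, a membrane-spanning gene of gut epithelium, at 594, 588, 583 and 588 CPM, Sptlc1, a subunit of the enzyme that opens sphingolipid synthesis, at 77.1, 77.3, 78.4 and 76.7 CPM, and Psap, the precursor of lysosomal saposins, at 629.8, 627, 621 and 617 CPM. The adhesion gene Cdh1 of epithelium was at 1039.8, 1014, 1017 and 1007 CPM. Their CVs, 0.754%, 0.928%, 0.934% and 1.40%, lay under the 2.00%, 5.50%, 1.94% and 1.52% expected from counting alone. They were picked as extremes of 3947 genes, so such CVs do not show that these genes are steady. The BCV that edgeR gave each of these genes was 13.7%, 13.4%, 13.7% and 13.8%. At the other end, the mitochondrial transcripts mt-Tm, mt-Rnr1 and mt-Rnr2 had CVs of 104%, 77.4% and 57.4%. The mitochondrial ribosomal RNA mt-Rnr2 was at 1106, 3723, 1517 and 1759 CPM. The ribosomal protein gene Rpl21 was at 142, 363, 121 and 132 CPM and Cox6c and Ndufa1, subunits of the respiratory chain, at 121, 283, 97.6 and 104 CPM and 48.3, 127, 47.8 and 55.3 CPM. Normal 2 was the highest in each of these 6 genes. The tubulin genes Tuba1b and Tuba1c, at 584, 186, 309.6 and 216 CPM and 184, 77, 87.3 and 66 CPM, were highest in Normal 1. Socs3, a feedback inhibitor of cytokine receptors, was at 102, 23.9, 20.9 and 8.84 CPM and was the only named gene of 10 CPM or more for which Normal 1 exceeded 3 times the next library.

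**Figure D3:**
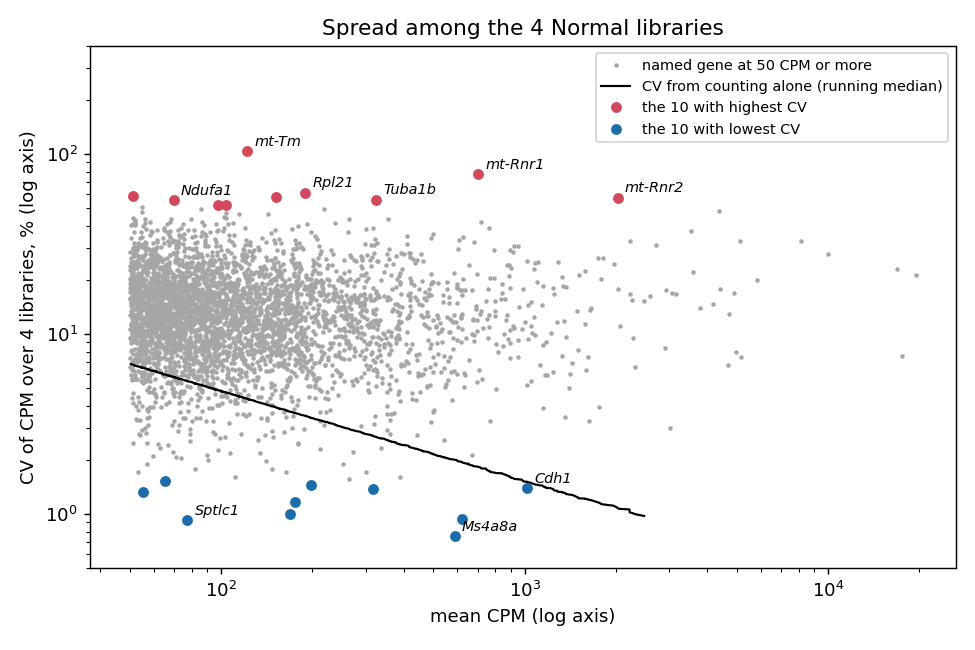
CV of CPM over the 4 Normal libraries against mean CPM, both on log axes, for named genes at 50 CPM or more, with the CV expected from counting alone as a line and the 10 genes with the highest and lowest CV marked. mt-Tm lies at the top and Ms4a8a at the bottom.

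The deviation of a library from the other 3 went with the GC content of the transcript. Over 3938 genes of 50 CPM or more with a GC value, Spearman's rank correlation between GC content and the log2 ratio of a library to the mean of the other 3 was 0.41, -0.47, 0.37 and -0.09 for Normal 1 to 4 (a description across genes, which are not independent and share each library's depth). In Normal 2, the bin of genes with the lowest GC, of 5, had a median log2 ratio of 0.24 and the bin with the highest -0.21. As each library is set against the others, Normal 2 moves all 4 values, and without it the correlation was 0.27, 0.11 and -0.35 for Normal 1, 3 and 4. The rank correlation with transcript length was between -0.06 and 0.13. The part of GC content in the single-library differences was not tested. Normal 2, the shallowest library, was the lowest of the 4 for 36.8% of these genes and the highest for 30.02%, and Normal 3 was the lowest for 11%.

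**Figure D4:**
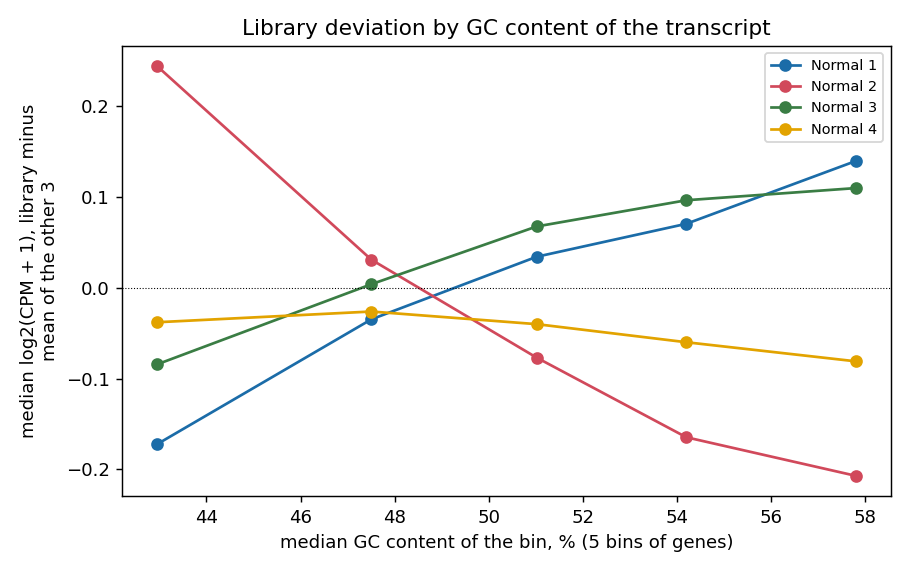
Median difference of log2(CPM + 1) between each Normal library and the mean of the other 3, over 5 bins of genes by GC content of the transcript. Normal 2 falls from 0.24 to -0.21 with GC, Normal 1 and 3 rise, and Normal 4 stays between -0.04 and -0.08 at both ends.

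Normal 4 was set apart in its cell cycle genes. All 24 were at 1 CPM or more, and their sum was 1453, 1224, 1198 and 638 CPM. After their values were seen the list was split by function. The 13 genes of G2 and mitosis summed to 620.04, 734, 648 and 243 CPM, and Normal 4 was the lowest in 13 of 13. The 11 genes of DNA replication and nucleotide synthesis summed to 833, 490.02, 549.8 and 396 CPM, with Normal 1 the highest in 10 and Normal 4 the lowest in 9. Over both sets Normal 4 was the lowest in 22 of 24 genes, in 24 without Normal 2, and in 21 on CPM scaled by edgeR's trimmed mean of M values (TMM) factors. By comparison, over the 3947 named genes of 50 CPM or more, Normal 4 was the lowest for 25.4% and Normal 1 the highest for 29.2%. Of the genes of 10 CPM or more in which a library lay more than 3 times below the lowest of the other 3, Normal 4 had 13, Normal 2 had 4, Normal 1 had 2 and Normal 3 had 0. The 13 of Normal 4 were Cenpa, Kifc1, Nek2, Dlgap5, Kntc1, Kif18b, Kif2c, Racgap1, Birc5, Ect2, Ccna2, Cdkn3 and Foxm1, which encode proteins of the centromere, the spindle, cell division and its transcription. Cenpa, the histone variant of centromeres, was at 26, 29.8, 29.1 and 5.14 CPM, and Foxm1, a transcription factor of mitotic genes, at 29.4, 19.3, 28.7 and 6.38 CPM. Median GC content was 47.8% in the mitotic and 47.3% in the replication genes, against 51% over all 3938 genes. The rank correlation of Normal 4 with GC content given above was -0.09, or -0.35 without Normal 2, and its part in the cell cycle values was not tested.

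Both sets are known for promoter elements of their own, so the 250 bases upstream of the RefSeq start are shown for 2 genes of each (RefSeq promoter table, GRCm38.p6, each 5' to 3' in the direction of the gene). Capitals mark elements searched on both strands. They are the box known to bind NF-Y, CCAAT, the core of the cell cycle genes homology region, TTTGAA, and the E2F-type words TTTGGCGC, TTTCGCGC and TTTCCCGC. Ccnb2 is cyclin B2 (chr9:70421555-70421804, minus strand) and Cdc20 the activator of the anaphase-promoting complex (chr4:118437344-118437593, minus strand). Mcm5 (chr8:75109259-75109508, plus strand) and Mcm6 (chr1:128359706-128359955, minus strand) are subunits of the replicative helicase.
Ccnb2: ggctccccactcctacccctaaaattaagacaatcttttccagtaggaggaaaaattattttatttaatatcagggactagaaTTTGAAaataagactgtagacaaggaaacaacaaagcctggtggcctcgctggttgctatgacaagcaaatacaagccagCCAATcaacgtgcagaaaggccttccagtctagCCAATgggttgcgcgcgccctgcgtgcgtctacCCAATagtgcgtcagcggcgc
Cdc20: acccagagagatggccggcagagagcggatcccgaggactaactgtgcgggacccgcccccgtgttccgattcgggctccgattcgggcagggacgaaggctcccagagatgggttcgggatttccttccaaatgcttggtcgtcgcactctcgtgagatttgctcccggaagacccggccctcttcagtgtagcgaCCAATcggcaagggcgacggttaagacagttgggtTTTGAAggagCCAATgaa
Mcm5: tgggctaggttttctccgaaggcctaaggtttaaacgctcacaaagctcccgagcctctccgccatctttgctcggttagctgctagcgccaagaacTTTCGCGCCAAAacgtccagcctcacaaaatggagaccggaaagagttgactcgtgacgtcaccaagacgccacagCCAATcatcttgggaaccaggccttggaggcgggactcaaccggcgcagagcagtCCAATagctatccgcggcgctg
Mcm6: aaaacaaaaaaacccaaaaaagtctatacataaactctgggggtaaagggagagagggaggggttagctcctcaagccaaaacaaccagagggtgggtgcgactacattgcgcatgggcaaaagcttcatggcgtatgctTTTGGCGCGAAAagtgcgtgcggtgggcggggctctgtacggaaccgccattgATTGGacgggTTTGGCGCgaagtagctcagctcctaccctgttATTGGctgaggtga

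TTTGAA was in this window of 6 of 11 mitotic genes with a table entry and of 1 of 10 replication genes, beside 18.3% of the 27018 genes of the table. An E2F-type word was in 1 of 11 and 3 of 10, beside 1.78%, and CCAAT in 10 of 11 and 8 of 10, beside 37.5%. In Mcm5 and Mcm6, E2F-type words on opposite strands overlap. These matches describe letters in the window and nothing about binding. Ccnb2, which holds 1 TTTGAA and 3 NF-Y boxes, was at 43.7, 38.7, 49.6 and 13 CPM. Cdc20, which holds 1 and 2, was at 51.7, 45.2, 46.8 and 16 CPM. In both, Normal 4 was well below the other 3. Mcm5 was at 99.2, 47.5, 65.5 and 46.7 CPM and Mcm6 at 89.8, 48.8, 59.5 and 39.1 CPM, with Normal 1 the highest and Normal 4 the lowest in both.

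**Figure D5:**
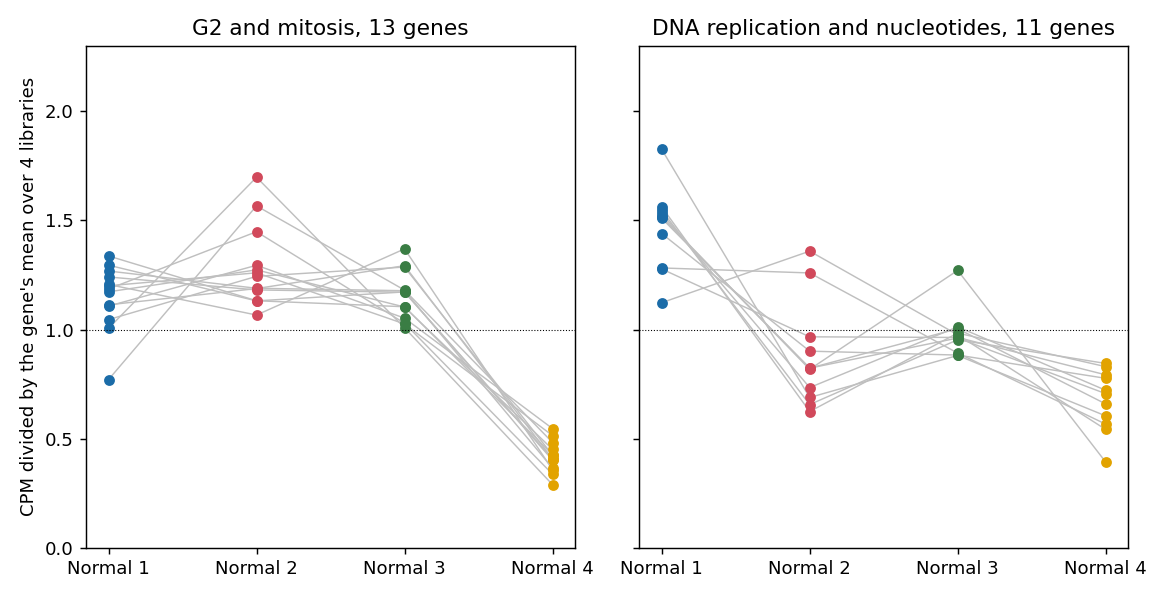
CPM of each cell cycle gene in each Normal library divided by the gene's mean over the 4 libraries, for the 13 genes of G2 and mitosis (left) and the 11 of DNA replication and nucleotide synthesis (right); grey lines join 1 gene. On the left all points of Normal 4 lie below those of the other libraries for the same gene, and on the right Normal 1 is the highest for 10 genes.

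The comparison with Vehicle shows how the untreated colon differs from that of mice with transferred T cells and the methylcellulose vehicle. By edgeR's quasi-likelihood test with Benjamini-Hochberg adjustment over 14773 genes, 6853 (46.4%) had an adjusted p under 0.05, 3437 (23.3%) higher in Normal and 3416 (23.1%) lower, and the median log2 difference over all genes tested was -0.0017. Of 24 surface colonocyte genes tested, 16 were higher and 3 lower in Normal (median log2 difference 1.73). The genes that were lower were Krt20, Dhrs9 and Tmigd1. Of 18 goblet cell genes tested, 11 were higher and 4 lower in Normal (median log2 difference 1.40). Here the lower genes included Retnlb, a secreted resistin-like protein of goblet cells, at 48.1 ± 15.3 CPM in Normal and 373 ± 182 CPM in Vehicle. The mucin gene Muc2 was not called, at 2927 ± 513 CPM in Normal and 3467 ± 630 CPM in Vehicle (edgeR adjusted p = 0.494). Of 13 ion and water transport genes tested, 10 were higher and 0 lower in Normal (median log2 difference 1.42). Of 20 xenobiotic metabolism genes tested, 16 were higher and 2 lower in Normal (median log2 difference 1.85). Of 12 enteroendocrine genes tested, 8 were higher and 0 lower in Normal (median log2 difference 1.59). Genes of distal colon position, mostly homeobox genes, were also higher in Normal for 6 of 7 tested and lower for 0 (median log2 difference 1.08). Their sum was 771, 677, 721 and 755 CPM in Normal and 234 to 433 CPM in Vehicle. Whether the stretch of colon sampled differed between the groups was not tested. Outside the epithelium, muscle, nerve and fat lists were also mostly higher in Normal, while those of matrix and blood endothelium were mixed. Of 20 smooth muscle genes tested, 19 were higher and 0 lower in Normal (median log2 difference 1.58). Of 20 enteric neuron genes tested, 15 were higher and 1 lower in Normal (median log2 difference 1.93). The lower gene was Tac1, the precursor of substance P. Of 8 adipocyte genes tested, 8 were higher and 0 lower in Normal (median log2 difference 3.21). Of 16 fibroblast and matrix genes tested, 6 were higher and 3 lower in Normal (median log2 difference 0.30). Of 14 blood endothelial genes tested, 2 were higher and 2 lower in Normal (median log2 difference 0.08). Lymphatic endothelial genes were higher for 5 and lower for 1 of 7 tested (median log2 difference 1.18). Pericyte genes were higher for 3 and lower for 0 of 6 tested (median log2 difference 0.79). Lists of dividing cells, leukocytes and antigen presentation went the other way. Of 24 cell cycle genes tested, 0 were higher and 24 lower in Normal (median log2 difference -1.12). Of 19 monocyte and macrophage genes tested, 2 were higher and 13 lower in Normal (median log2 difference -1.69). The higher genes were Mertk and Folr2, both known from resident macrophages, with Mertk at 27.6 ± 3.68 CPM in Normal and 11.6 ± 2.36 CPM in Vehicle. Of 22 T cell genes tested, 1 was higher and 20 lower in Normal (median log2 difference -5.28). The higher gene was Bcl11b. In Normal, 7 of the 23 genes measured had no count and only 7 reached 1 CPM. Many members thus passed the expression filter only through groups with transferred T cells and could hardly come out higher in Normal. Their number and the median difference are therefore no separate evidence. Of 11 MHC class I genes tested, 0 were higher and 11 lower in Normal (median log2 difference -2.04). Of 9 MHC class II genes tested, 0 were higher and 8 lower in Normal (median log2 difference -3.35). Without Normal 4 the number of cell cycle genes lower was 19. Of 16 general epithelial genes tested, 3 were higher and 2 lower in Normal (median log2 difference 0.07). Their share called was below the background.

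Single genes show the sizes. After a log2 difference, here and below, ± gives its standard error, taken as the difference divided by the root of the test's F. It is not an SD among libraries. Sycn was at 1582 ± 179.9 CPM in Normal and 29.7 ± 14.3 CPM in Vehicle, a log2 difference of 5.78 ± 1.09 (edgeR adjusted p = 0.000405). Clca3 was at 781 ± 334 CPM in Vehicle, a log2 difference of 3.71 ± 0.71 (edgeR adjusted p = 0.000445), and Car1 at 197 ± 62.8 CPM, a difference of 3.70 ± 0.66 (edgeR adjusted p = 0.000226). Lypd8 was still at 11089 ± 1589 CPM in Vehicle, 0.70 ± 0.23 apart on the log2 scale (edgeR adjusted p = 0.0136), and without Vehicle 1 the difference was 0.60 with an adjusted p of 0.0519 (range over the alternatives that kept the samples' own names 0.00131 to 0.0519). Insl5 was 2.71 ± 0.67 higher in Normal (edgeR adjusted p = 0.00328) and Actg2 1.47 ± 0.35 (edgeR adjusted p = 0.00214). Cfd was 3.28 ± 1.02 higher (edgeR adjusted p = 0.0139). Krt8 differed by -0.03 ± 0.19 and Prkdc by 0.25 ± 0.16, neither past 0.05 (edgeR adjusted p = 0.903 and 0.185).

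Genes of the circadian clock also differed. Of 15 clock genes tested, 12 were higher and 1 lower in Normal (median log2 difference 1.81). The lower gene was Cry1, which encodes a repressor of the loop. Nr1d1, a repressor in the clock's feedback loop, was at 354, 316, 308 and 319 CPM in Normal and 58.7 ± 8.17 CPM in Vehicle, a log2 difference of 2.51 ± 0.38 (edgeR adjusted p = 3.49e-05). The hour of day at which each colon was taken is not given in the sources used here, so hour and group cannot be told apart. Of 16 epithelial defence genes tested, 5 were higher and 11 lower in Normal (median log2 difference -2.62). Of these, Saa1 was 2.16 ± 0.45 higher in Normal on the log2 scale (edgeR adjusted p = 0.000739), whereas Pla2g2a was at 4176 ± 669 CPM in Vehicle, a log2 difference of -3.05 ± 0.39 (edgeR adjusted p = 4.12e-06). Cd74 was at 4222 ± 468 CPM, a difference of -3.42 ± 0.16 (edgeR adjusted p = 1.65e-13). The pancreas list, of which Cela1 gave nearly all in Normal, summed to 419.6, 333, 361 and 449.6 CPM in Normal and to 30.1 to 7800.1 CPM in single Vehicle libraries. The Vehicle mean was 1975 ± 3883 CPM. Of 10 pancreas genes tested, 0 were higher and 6 lower in Normal, while without Vehicle 4, 1 was higher and 0 lower.

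The make-up of the libraries differed as well, by a two-sided exact permutation test of 4 against 4 whose smallest p is 0.0286. The 100 highest genes held 25.9% ± 1.46 of counts in Normal and 22% ± 0.365 in Vehicle, with no overlap. Mitochondrial genes such as mt-Co1 are among them, so this share and the mitochondrial share are not independent. Mitochondrially encoded genes held 4.74% ± 1.29 and 2.90% ± 0.273, and ribosomal protein genes 3.72% ± 0.123 and 5.05% ± 0.279 (SD, n = 4). Each of these 3 had p = 0.0286 by the exact test, 0.0381 adjusted over 4 values. The number of genes with a count after thinning every library to 3052940 counts was 18386 ± 420.2 and 18487 ± 168 (exact permutation p = 0.83).

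Set beside the groups given a drug or antibody, the Normal sums lay outside the range of all 16 libraries for some lists and overlapped it for others. T cell genes summed to 38.1, 42.6, 39.9 and 32.5 CPM in Normal, and to 109 to 302 CPM in those 16 libraries. In Normal 7 of the 23 genes, among them Cd3e and Trac, had no count. The sum there came from other members, such as Cd4 and Bcl11b, and Bcl11b was higher in Normal than in Vehicle. The Normal sum is therefore not a measure of T cells alone. Adipocyte genes summed to 461, 393, 449 and 391 CPM in Normal against 14.9 to 268 CPM, smooth muscle genes to 13042, 14039.6, 13565 and 10968 CPM against 3242 to 9167 CPM, and clock genes to 1250.04, 903, 992 and 1149.5 CPM against 308 to 764 CPM. For goblet cell genes the ranges overlapped, with 5019.8 to 33902 CPM in the 16 libraries against 23254, 34723, 31131 and 30271 CPM in Normal, and for cell cycle genes with 963 to 3052 CPM in the 16 against 1453, 1224, 1198 and 638 CPM in Normal. These values are given without a test.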

How the data were processed

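RNA of 24 SCID mouse colon samples was sequenced as poly(A) RNA on an Ion Torrent instrument, per the labels' protocols. The deposited files hold raw counts per gene symbol on mm10, per the labels' protocols and the submitters' processing notes; how the authors aligned and counted, and whether strand was used, is not given in the sources used here. CPM was computed from library totals. Exon lengths came from GENCODE M21, which matched 40251 of 43280 symbols. "Named" genes leave out predicted and Riken symbols. Normal was compared with Vehicle in edgeR 4.0.16 (R 4.3.3; expression filter by group, TMM factors, robust quasi-likelihood fit of all 24 libraries, adjusted p under 0.05), with DESeq2 1.42.0 as an alternative. On simulated counts of 14480 genes with 200 changed, it recovered 68% of 2-fold and 100% of 4-fold changes, and 6.67% of calls were false. The BCV set there was 23.2%. These percentages hold for that setting only. Recovery with as many genes differing as between Normal and Vehicle, where 6853 of 14773 were called, was not tested. Totals of 3052940 to 5358259 counts in Normal allow up to 0.560 to 0.983 CPM where a library has 0 counts (3 counts, counting error only).

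Genes were named if among the 20 highest by CPM or CPM per kb, the 4 highest per kb or at 0 in a list, bearing on SCID, among the 10 highest or lowest CVs, or apart in 1 library. Other genes in the text, those whose difference from Vehicle is printed, and the split of the cell cycle list were chosen after their values were seen. The members and lists were chosen with earlier results of these data known. Some genes that this rule picks are not reported here.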

Additional observations from a re-analysis of the deposited data

Results flagged for a closer look

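Of 199 sets of 4 Normal values examined (list sums, library values and named genes of 10 CPM or more), 12 had 1 library far from the other 3 by Dixon's ratio. Chance gives about 1 in 20 sets, and no cause was tested.

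In Normal 1, Pigr was low at 3810 CPM (others 5005 to 5068), Sult1a1, a sulfotransferase gene, was low at 218 CPM (others 304 to 306) and Kcnj8, a potassium channel gene of pericytes, was high at 22.1 CPM (others 13.8 to 14.6). In Normal 2, which also differs from the rest by GC content, 4 genes were high. They were Muc13, a membrane-bound mucin, at 3947 CPM (others 2809 to 2937), Pyy at 286 CPM (others 132 to 151), Gas5, a long non-coding RNA, at 55.0 CPM (others 30.4 to 33.3) and Xrcc5, an end-joining gene whose product works with that of Prkdc, at 40.6 CPM (others 25.4 to 27.4). In Normal 3, the haemoglobin gene Hba-a2 was high at 17.5 CPM (others 10.7 to 11.8) and Plvap at 87.7 CPM (others 74.7 to 76.4), and 1 count of Atp4a made the stomach sum 0.187 CPM against 0 in the others. In Normal 4, Lypd8 was high at 19526 CPM (others 16816 to 16917) and the sum of tuft cell genes low at 35.8 CPM (others 41.6 to 42.0).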

How the results depend on the processing

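With the samples' own names, 5983 to 7253 genes differed between Normal and Vehicle, against 6853 as reported, over DESeq2, other scalings, no filter, a fit of both groups alone and leaving out each library (5983 to 6614). With a replicate block the count was 6665. Replicate numbers do not pair the samples: same-numbered Normal and Vehicle libraries had deviations correlated at -0.03 to 0.03. By the column names of the whole-series table, which put 2 Normal libraries and 2 of the 0.3 mg/kg MEK inhibitor group in each of these groups, 0 genes passed in edgeR, 0 higher and 0 lower, with 455 at an unadjusted p under 0.05. Under those names the BCV of Normal was 31.6%. The 20 named genes of highest CPM, with mitochondrial genes left out, then held 10.7% of counts. The log2 differences of Car1 (-0.071), Cd74 (0.0474), Cfd (-0.0428), Clca3 (-0.138) and Lypd8 (-0.112) changed sign.

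Of 136 called genes among 188 genes chosen for naming, 56 changed sign under those names, 1 under another alternative (Cela2a without Vehicle 4), and 20 lost their call under another alternative. Of 294 list sums recomputed, 35 moved by more than 1 SD. The BCV of Normal was 14.4% to 21.2% and the median CV 9.79% to 13.7% without single libraries. The difference in genes detected after thinning was -101, and 99.9 without Normal 2. Depth limits what can be said of genes under about 1 CPM.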
